A study of Mus musculus with 15 samples.

Results

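The E2F transcription factors E2f1 to E2f8 and the pocket proteins Rb1 and Rbl1 were described in brown adipose tissue (BAT) of mice with a BAT-specific knockout of DJ-1 (gene Park7) and of flox controls. The 10 genes were taken by symbol from a table of 24030 symbols, and 10 of 10 were found and passed the filter on low counts, among 15083 genes tested. E2f2 was chosen by its measured levels in these libraries, lower in KO than in WT at 29 °C and higher at room temperature, so its values are given as a description with no test. The other 9 genes came in as its family, and their differences were tested. The 15 bulk RNA libraries were 3 of KO BAT at 29 °C, 4 of flox WT BAT at 29 °C, 4 of KO BAT at room temperature and 4 of flox WT BAT at room temperature. Housing lasted 8 weeks in each group, and for room temperature the labels give no temperature in degrees. The libraries labelled WT came from flox mice. The Cre driver, the sex and age of the mice and whether each library came from 1 animal are not stated in the labels, so p-values measure the spread between libraries, which may be technical in part.

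E2F proteins bind the promoters of genes for DNA replication and mitosis, and pocket proteins bind E2Fs and hold those genes down until cyclin-dependent kinases phosphorylate them. E2f1, E2f2 and E2f3 encode the factors usually classed as activators, E2f4 and E2f5 those that mostly repress together with pocket proteins, E2f6 a repressor that works with Polycomb-type complexes without a pocket protein, and E2f7 and E2f8 atypical repressors that bind DNA without a dimerization partner. Rb1 and Rbl1 (p107) are known in fat tissue as regulators of the choice between brown and white adipocyte programs, beside their part in the cell cycle.

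Several E2f genes and Rbl1 are themselves known targets of E2F, so the start regions of the genes were searched for E2F octamers. RefSeq promoter windows of build GRCm38.p6, each from 250 bases before to 50 bases after a transcript start, were given for 7 of the 10 genes and made up 9 windows; E2f4, E2f5 and Rb1 had none. The octamers TTTCCCGC, TTTCGCGC, TTTGCCGC and TTTGGCGC were searched on both strands. One of them stood in 4 of the 9 windows (44.4%), against 744 of all 32851 mouse windows (2.26%). Those 4 windows belonged to E2f2, E2f3, E2f7 and Rbl1. The windows of E2f2, E2f7 and Rbl1 are printed. With 29 °C, E2f7 and Rbl1 were higher in both genotypes, and E2f2 was higher in WT and lower in KO. E2f3, the other gene with an octamer, was lower in KO (log2 change -0.49) and stood at 0.07 in WT. E2f1, with no octamer in its window, was higher in both genotypes. The part of the octamers in these changes was not tested. Each window is given 5′ to 3′ on the gene's strand, with the octamer in capitals. E2f2 is at chr4:136172024-136172323 on the plus strand, E2f7 at chr10:110745189-110745488 on the plus strand and Rbl1 at chr2:157204485-157204784 on the minus strand.
E2f2: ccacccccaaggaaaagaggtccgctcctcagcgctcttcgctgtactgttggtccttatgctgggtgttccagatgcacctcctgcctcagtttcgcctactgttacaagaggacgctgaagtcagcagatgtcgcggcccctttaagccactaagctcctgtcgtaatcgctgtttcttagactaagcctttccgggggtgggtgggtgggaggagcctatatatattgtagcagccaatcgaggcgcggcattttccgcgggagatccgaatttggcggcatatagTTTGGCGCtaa
E2f7: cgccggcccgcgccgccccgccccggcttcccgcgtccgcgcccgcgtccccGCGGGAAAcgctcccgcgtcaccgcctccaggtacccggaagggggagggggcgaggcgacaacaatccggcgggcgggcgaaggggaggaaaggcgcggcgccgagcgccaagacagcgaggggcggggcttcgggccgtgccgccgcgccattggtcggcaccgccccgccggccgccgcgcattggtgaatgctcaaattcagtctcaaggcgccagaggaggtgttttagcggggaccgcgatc
Rbl1: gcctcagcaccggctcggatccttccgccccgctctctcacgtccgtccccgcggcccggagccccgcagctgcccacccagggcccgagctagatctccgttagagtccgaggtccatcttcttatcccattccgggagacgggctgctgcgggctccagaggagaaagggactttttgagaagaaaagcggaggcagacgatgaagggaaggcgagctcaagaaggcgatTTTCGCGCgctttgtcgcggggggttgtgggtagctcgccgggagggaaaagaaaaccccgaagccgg
In E2f2 the octamer TTTGGCGC began at position 40 after the RefSeq start. In GENCODE vM21 the 5′ end of E2f2 is at 136172394, so this window lies wholly before that end, and the bases between them were not searched. In E2f7 the octamer read GCGGGAAA, the reverse complement of TTTCCCGC, at position -198, and in Rbl1 TTTCGCGC began at position -18. The window of E2f3 at chr13:29986014-29986313 on the minus strand held GCGGGAAA at position -11. The windows of E2f1, E2f6 and E2f8, and a second window each of E2f2 and E2f3, held none of the 4 octamers. The second windows, at chr4:136180532-136180831 for E2f2 and chr13:29984342-29984641 for E2f3, lie inside the genes. The E2f1 window, at chr2:154569377-154569676 on the minus strand, lies inside the gene. In GENCODE vM21 the 5′ end of E2f1 is at 154569892, so the region before that end was not searched. The CHR element TTTGAA, which the MuvB complex reads in mitotic promoters, stood in 3 of the 9 windows (1 each of E2f2, E2f3 and E2f8) and in 17.9% of all windows. The E-box CACGTG stood in 1 of the 9 (the second window of E2f3) and in 7.15% of all windows. A match is a run of letters and was not tested for binding.

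Deposited values were estimated counts per gene, given here as CPM, that is, scaled to the size of each library with TMM factors. In 14 libraries the total count was between 23977448 and 26789246, and in KO at 29 °C replicate 1 it was 38800967. Park7 checked the genotype labels: it stood at 35.1, 25.4 and 34.5 CPM in KO at 29 °C against 128, 126, 116 and 104 CPM in WT at 29 °C, and at 26.7, 34.1, 25.0 and 26.9 CPM in KO against 111, 108, 112 and 109 CPM in WT at room temperature. Brown adipocyte markers were abundant in every library, with sums over 10 genes of 16484 to 19895 CPM in KO at 29 °C, 10364 to 11326 CPM in WT at 29 °C, 16840.3 to 26853 CPM in KO at room temperature and 22974 to 24123 CPM in WT at room temperature. Skeletal muscle markers summed to 493 and 1534 CPM in KO at 29 °C replicates 2 and 3 and to 1226 CPM in WT at 29 °C replicate 2, against 11.1 CPM or less in the other 12 libraries. KO at room temperature replicates 2 and 4 had stood apart in an earlier look at these data. Where leaving either set out changed the call of a member that is printed here, the value without it is given. Where it moved a printed count of list genes by over 1.5 times, the count without it or the change is given.

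Per kilobase of merged exon in GENCODE vM21, Rb1 was the most abundant of the 10 transcripts in 3 of the 4 groups and E2f8 the least abundant in each. In KO at 29 °C the order by level was Rb1 (8.56 ± 0.773 CPM per kb, SD, n = 3), E2f4 (5.95 ± 0.669), E2f6 (4.77 ± 0.766), E2f5 (4.66 ± 0.355), E2f2 (1.35 ± 0.2), Rbl1 (1.3 ± 0.295), E2f3 (1.13 ± 0.133), E2f1 (0.52 ± 0.0856), E2f7 (0.271 ± 0.192) and E2f8 (0.0746 ± 0.0153). Neighbours from E2f4 to E2f5, from E2f2 to E2f3 and from E2f1 to E2f7 overlapped between libraries. In WT at 29 °C, E2f4 (6.61 ± 0.677 CPM per kb, SD, n = 4), E2f2 (5.49 ± 0.797), Rb1 (5.42 ± 0.647) and E2f5 (5.26 ± 0.6) led the order and overlapped one another, followed by E2f6 at 3.36 ± 0.111. At room temperature E2f2 in KO, at 5.16 ± 0.985 CPM per kb, stood between E2f5 at 7.18 ± 0.403 and E2f6 at 4.94 ± 0.662, and its libraries overlapped those of E2f6 only. In WT at room temperature E2f2, at 1.57 ± 0.35 CPM per kb, stood between E2f6 at 4.54 ± 0.42 and E2f3 at 1.33 ± 0.152 and overlapped E2f3. The repressor genes E2f4, E2f5 and E2f6 were thus above the activator genes E2f1 and E2f3 per kilobase in each group. The rank of E2f2 ran from 2 to 5 over the groups, that of E2f6 from 3 to 5 and that of Rb1 from 1 to 3. E2f2 was chosen by its levels in these groups, so its shift in rank is only a description. In bulk tissue, fewer cells of a type and less RNA per cell cannot be told apart.

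E2f2 lies on chromosome 4 at 136172394 to 136196057 (GRCm38, plus strand). Its levels were 5.54, 7.44 and 6.86 CPM in KO at 29 °C, against 29.8, 28.2, 28 and 21.1 CPM in WT at 29 °C. At room temperature they were 22.3, 31.3, 20.5 and 26.6 CPM in KO, against 8.60, 5.15, 8.06 and 8.87 CPM in WT. Each KO group lay wholly on one side of its WT group, below at 29 °C and above at room temperature, as did 43.1% and 8.21% of all tested genes in either direction. The fitted log2 difference of KO from WT was -2.02 ± 0.20 (SE) at 29 °C, 4.06-fold lower, and 1.71 ± 0.18 at room temperature, 3.28-fold higher. With 29 °C against room temperature, it was -1.93 ± 0.20 in KO (3.82-fold lower) and 1.80 ± 0.18 in WT (3.49-fold higher). The 4 groups thus stood at 2 levels: WT at 29 °C (26.8 ± 3.89 CPM, SD, n = 4) and KO at room temperature (25.2 ± 4.81, n = 4) overlapped, and so did WT at room temperature (7.67 ± 1.71, n = 4) and KO at 29 °C (6.61 ± 0.974, n = 3). In each of 24 refits with another setting or with libraries left out the signs stayed as given. The log2 difference of KO from WT ran from -2.32 to -1.90 at 29 °C and from 1.48 to 1.79 at room temperature. KO lay above WT at room temperature and below it at 29 °C without overlap in 76 of the 15083 genes, E2f2 among them, and the opposite order held in 178.

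**Figure D1:**
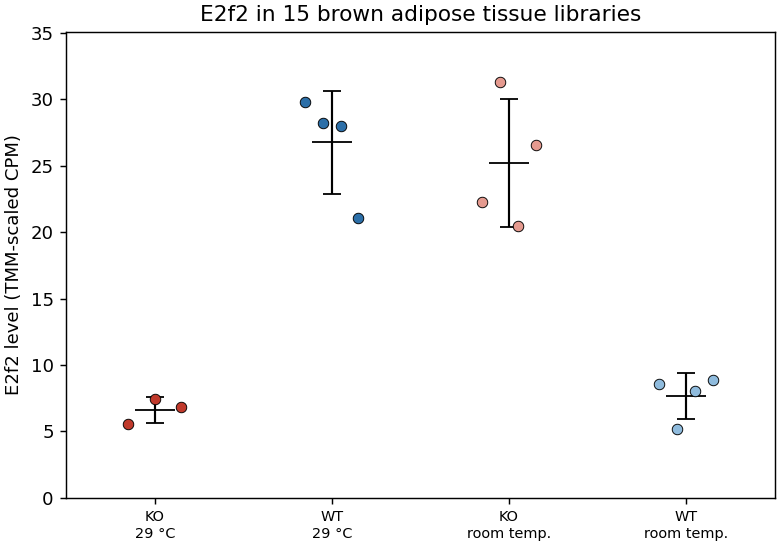
E2f2 in each library (points, CPM after TMM scaling) by group, with the group mean and SD. KO at 29 °C and WT at room temperature lie between 5.15 and 8.87 CPM, and WT at 29 °C and KO at room temperature between 20.5 and 31.3 CPM.

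By root mean square difference of log2 CPM over the 15 libraries, each gene centred on its own mean, 4 of the 5 genes with the pattern most like E2f2 among 11895 compared were Als2cl (0.51), Arntl (0.54), Dtx4 (0.57) and Atp8a1 (0.61), where the median gene was at 1.04. Arntl encodes the clock factor BMAL1. Arntl averaged 5.04 ± 2.23 CPM in KO and 25.6 ± 2.37 CPM in WT at 29 °C, and 11 ± 3.15 CPM in KO and 4.49 ± 0.931 CPM in WT at room temperature. Dtx4 averaged 11.4 ± 1.37 CPM in KO and 21.3 ± 2.55 CPM in WT at 29 °C, and 24.2 ± 6.19 CPM in KO and 14.4 ± 2.17 CPM in WT at room temperature. These genes were chosen for their likeness and got no test. With each gene also scaled to unit SD, 2 of the 5, Als2cl and Dtx4, were again among the nearest 5. The distance of the other 9 members to E2f2 ran from 0.86 for E2f3 to 1.48 for E2f8.

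**Figure D2:**
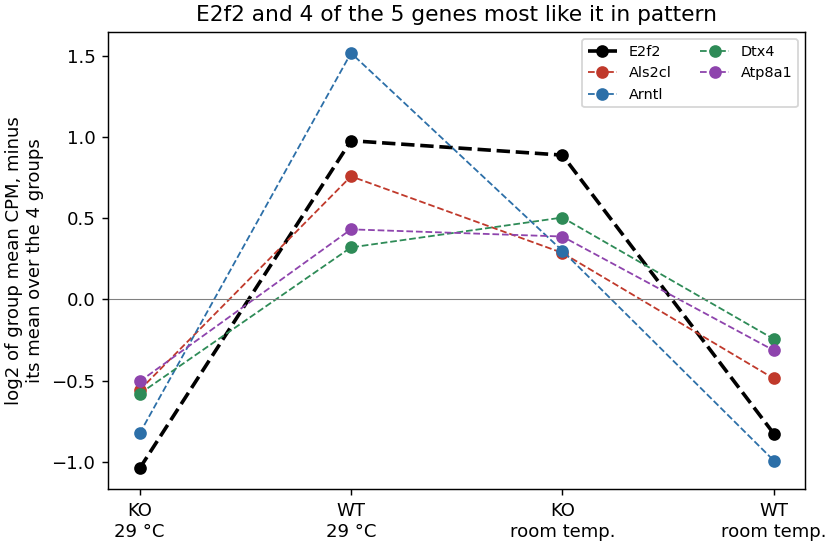
Log2 of the group mean CPM of E2f2 and of 4 of the 5 genes nearest to it, each minus its mean over the 4 groups; lines join the points of a gene. In each gene the mean of KO at 29 °C lies below that of WT at 29 °C, and the mean of KO at room temperature above that of WT at room temperature.

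In the other activator genes, E2f1 and E2f3, KO did not lie on opposite sides of WT without overlap at the 2 temperatures. E2f1 (chromosome 2, 154559407 to 154569892, minus strand) was at 1.43, 1.54 and 1.94 CPM in KO at 29 °C, against 2.67, 2.42, 2.63 and 2.66 CPM in WT at 29 °C, and the groups did not overlap. At room temperature it was at 0.776, 0.759, 0.967 and 0.975 CPM in KO, against 1.16, 0.472, 0.587 and 0.779 CPM in WT, and they overlapped. E2f1 was therefore highest in WT at 29 °C and higher at 29 °C than at room temperature in both genotypes, by 0.90 ± 0.26 in KO and 1.78 ± 0.24 in WT on the log2 scale. E2f3 (chromosome 13, 29906575 to 29986063, minus strand) stayed between 5.48 and 9.08 CPM over all libraries. It was at 5.94, 5.48 and 6.89 CPM in KO against 6.38, 7.53, 7.40 and 9.08 CPM in WT at 29 °C, and at 8.45, 8.35, 8.46 and 9.02 CPM in KO against 6.16, 7.60, 7.09 and 8.09 CPM in WT at room temperature. KO lay above WT at room temperature without overlap, and at 29 °C the genotypes overlapped. Of all tested genes, 8.21% had no overlap between the genotypes at room temperature and 43.1% at 29 °C, in either direction.

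The pocket protein Rb1 and the Polycomb-linked repressor E2f6 were higher in KO than in WT at 29 °C. Between these groups 43.1% of all tested genes did not overlap, in either direction. Rb1 (chromosome 14, 73183673 to 73325822, minus strand) was at 52.7, 55.5 and 46.4 CPM in KO against 31.2, 29.6, 38.4 and 31.4 CPM in WT at 29 °C, with no overlap. At room temperature Rb1 was at 64.4, 77.1, 56.4 and 72.8 CPM in KO against 59.1, 66, 57.2 and 60.6 CPM in WT, with overlap. The lowest Rb1 levels were those of WT at 29 °C. E2f6 (chromosome 12, 16810963 to 16839742, plus strand) was at 25.9, 31.7 and 23.2 CPM in KO against 19, 18.2, 19.2 and 19.6 CPM in WT at 29 °C, with no overlap. It was at 26.2, 33.4, 25.0 and 27.3 CPM in KO against 26, 27, 22.3 and 27.6 CPM in WT at room temperature, with overlap, so WT at 29 °C was again the group that stood lowest.

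At 29 °C, 3 of the 9 tested genes were called between KO and WT at an adjusted p under 0.05 in edgeR's quasi-likelihood test, where 44.7% of all tested genes were called (24.7% higher and 20.0% lower). Rb1 rose by 0.66 ± 0.11 (log2, SE; adjusted p = 0.00026, 1.58-fold) and E2f6 by 0.50 ± 0.12 (adjusted p = 0.00276, 1.42-fold), and E2f1 fell by 0.67 ± 0.25 (adjusted p = 0.0362, 1.59-fold). E2f3 did not pass, at -0.31 ± 0.14 (adjusted p = 0.0726). The log2 differences of E2f4, E2f5, E2f7, E2f8 and Rbl1 lay between -0.74 and 0.08, and none passed. Rb1 stayed called in each of its 24 refits (adjusted p 2.44e-06 to 0.025). E2f6 lost its call (0.35, adjusted p = 0.132; range over its refits 0.000835 to 0.132) without the 3 libraries with muscle transcripts, which leaves 1 KO library whose spread is assumed to be like that of the other groups. E2f1 lost it in 7 refits: with the replicate number as a block (-0.64), without KO at 29 °C replicate 1 (-0.57) or 2 (-0.63), without WT at 29 °C replicate 1 (-0.66), 3 (-0.67) or 4 (-0.66), and without the 3 muscle libraries (-0.97). Over its refits the adjusted p of E2f1 ran from 0.00815 to 0.131. E2f3 gained a call without KO at 29 °C replicate 3 (-0.41), WT at 29 °C replicate 1 (-0.39) or KO at room temperature replicate 3 (-0.37), and its adjusted p ran from 0.0306 to 0.24.

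At room temperature, 0 of the 9 tested genes were called between KO and WT by edgeR, where 0.239% of all tested genes were called (0.0530% higher and 0.186% lower). At an unadjusted p under 0.05 there were 0 of the 9, against 1678 of all 15083 tested genes. DESeq2 also called 0 of the 9, where it called 1.67% of all genes. The smallest p was that of E2f3 (0.24 ± 0.13, adjusted p = 0.495 in edgeR's test). The 95% interval of the log2 difference was -0.03 to 0.52 for E2f3, -0.08 to 0.39 for Rb1, -0.12 to 0.36 for E2f6 and -0.10 to 0.76 for Rbl1. It was wide for E2f7, -1.27 to 0.93, and for E2f8, -1.01 to 2.04, the 2 genes with the fewest counts.

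**Figure D3:**
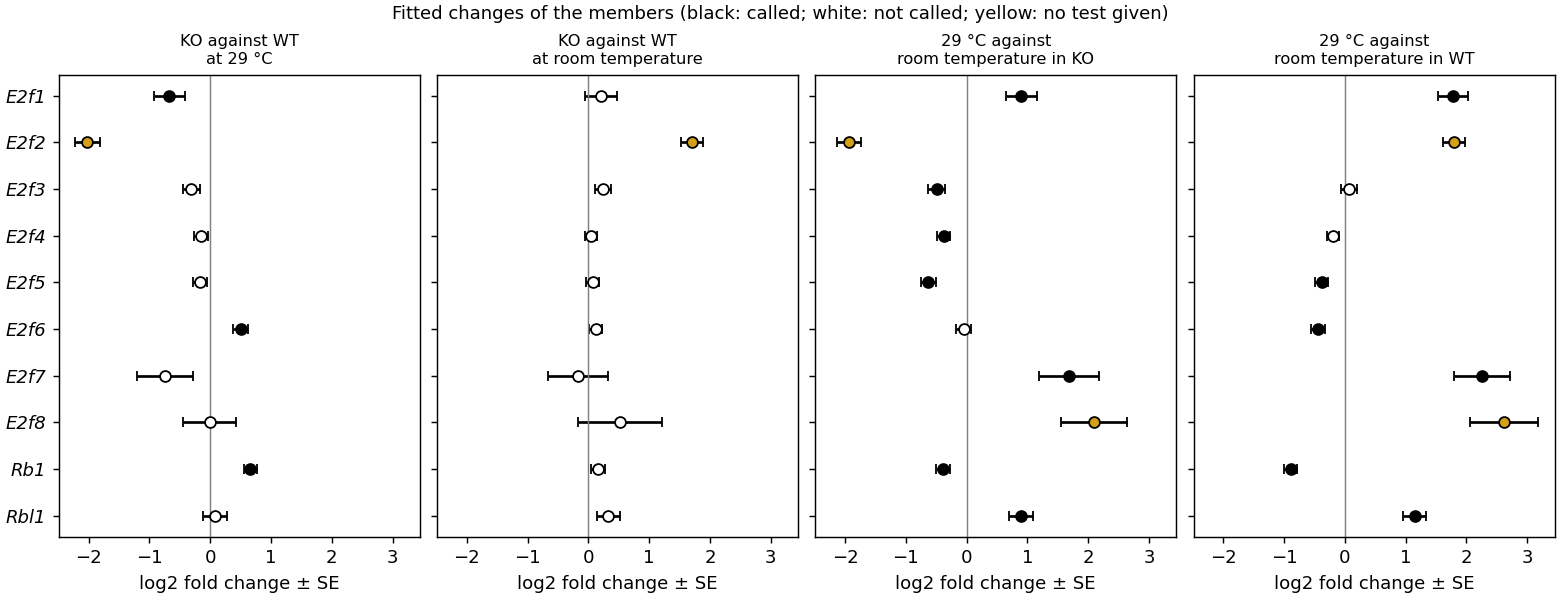
Log2 fold change with SE of each of the 10 genes in the 4 pairwise comparisons, from 1 edgeR model over 15 libraries; filled points were called, open ones were not, and yellow points have no test (E2f2, and E2f8 with housing). For KO against WT, E2f2 is at -2.02 at 29 °C and at 1.71 at room temperature, and Rb1 is at 0.66 and at 0.16.

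Whether the KO difference itself changed with housing was tested as the interaction, the KO effect at 29 °C minus that at room temperature. It was called for 2 of the 9 genes, where 28.3% of all tested genes were called (16.0% above 0 and 12.3% below): E2f3 (-0.56 ± 0.19, adjusted p = 0.0343 in edgeR's test) and Rb1 (0.50 ± 0.16, adjusted p = 0.0251). E2f3 thus had the sign of the interaction of E2f2 (-3.74 ± 0.26, no test), at a smaller size, and Rb1 the opposite sign. E2f1 (-0.88 ± 0.36, adjusted p = 0.0748) and E2f6 (0.38 ± 0.16, adjusted p = 0.0905) did not pass. The call of E2f3 was lost in 8 refits: without the 3 muscle libraries (-0.66), without KO at room temperature replicates 2 and 4 (-0.54), and without 1 of KO at 29 °C replicates 1 (-0.54) and 2 (-0.49), WT at 29 °C replicate 4 (-0.46), KO at room temperature replicate 4 (-0.53) and WT at room temperature replicates 1 (-0.49) and 3 (-0.55); its adjusted p ran from 0.0172 to 0.0958. The call of Rb1 was lost in 6 refits: without the 3 muscle libraries (0.43), and without 1 of KO at 29 °C replicates 1 (0.49) and 2 (0.45), WT at 29 °C replicate 2 (0.45), KO at room temperature replicate 3 (0.38) and WT at room temperature replicate 2 (0.46); its adjusted p ran from 0.00955 to 0.165. E2f1 gained a call with limma-voom (-0.96) and without WT at room temperature replicate 1 (-1.17), with adjusted p from 0.0157 to 0.16, and E2f6 without KO at 29 °C replicate 3 (0.48), KO at room temperature replicate 2 (0.48) or KO at room temperature replicates 2 and 4 (0.51), with adjusted p from 0.0299 to 0.425.

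The warmer housing was accompanied by more E2f1, E2f7 and Rbl1 and less E2f5 and Rb1 in each genotype. The comparisons in KO and in WT use different libraries, and each also shares its libraries with the KO against WT comparisons. E2f8 was at the filter's limit of 0.38 CPM in 0 libraries at room temperature and so had to be higher at 29 °C, and it is left out of these counts. In KO, 7 of the 8 remaining genes were called between 29 °C and room temperature (3 higher and 4 lower). Of the 13486 genes that passed the filter at both temperatures, 46.0% were called in KO (22.5% higher and 23.4% lower). In WT, 6 of the 8 were called (3 higher and 3 lower), close to the 68.8% of all tested genes that were called (35.9% higher and 32.8% lower).

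Among the atypical repressors, E2f7 (chromosome 10, 110745439 to 110787384, plus strand) was at 1.52, 1.35 and 4.43 CPM in KO at 29 °C against 0.560, 0.674, 0.685 and 1.1 CPM in KO at room temperature. In WT it was at 2.46, 2.59, 2.80 and 8.47 CPM at 29 °C against 0.744, 0.902, 0.755 and 0.995 CPM at room temperature. The groups did not overlap in either genotype, which held for 48.1% of all tested genes in KO and 62.6% in WT, and 1 library of each 29 °C group, KO replicate 3 and WT replicate 4, stood far above the rest of its group. The log2 change with 29 °C was 1.68 ± 0.49 in KO (adjusted p = 0.012 in edgeR's test) and 2.25 ± 0.46 in WT (adjusted p = 0.000518). Without KO at 29 °C replicate 3, the change in KO was 0.93 (adjusted p = 0.131; range over its refits 0.0012 to 0.251), and the KO difference from WT at 29 °C passed, at -1.49 (adjusted p = 0.0164; range over its refits 0.0164 to 0.828), against -0.74 ± 0.46 with all libraries (adjusted p = 0.208). Without the 3 muscle libraries the change in KO was also 0.93 and was not called. KO at 29 °C replicate 3 also had the highest muscle marker sum, 1534 CPM, and WT at 29 °C replicate 4 the highest mitochondrial share of counts, 41.6%; the part of either in E2f7 was not tested.

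E2f8 (chromosome 7, 48866429 to 48881596, minus strand) rested on few counts and passed the filter only through the 29 °C libraries. It had 21, 9 and 11 counts in KO at 29 °C against 1, 1, 6 and 1 in KO at room temperature, and 12, 19, 7 and 9 counts in WT at 29 °C against 2, 2, 1 and 1 in WT at room temperature. Each 29 °C library was above each room temperature library of its genotype. The filter fixed that direction, so the fitted log2 changes, 2.09 ± 0.54 in KO and 2.62 ± 0.56 in WT, are a description with no test.

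Rbl1, encoding the pocket protein p107 (chromosome 2, 157145893 to 157204534, minus strand), was at 9.67, 6.16 and 7.59 CPM in KO at 29 °C against 2.89, 4.13, 4.59 and 5.12 CPM in KO at room temperature. In WT it was at 6.86, 6.74, 7.95 and 8.07 CPM at 29 °C against 3.93, 2.83, 3.86 and 2.68 CPM at room temperature. The 29 °C libraries were higher in both genotypes without overlap, and KO and WT overlapped at each temperature. The log2 change was 0.90 ± 0.20 in KO (adjusted p = 0.00173 in edgeR's test) and 1.15 ± 0.19 in WT (adjusted p = 5.69e-05). Rb1 went the other way, falling by 0.39 ± 0.12 in KO (adjusted p = 0.0113) and by 0.89 ± 0.11 in WT (adjusted p = 1.93e-06). In KO the call of Rb1 was lost without KO at 29 °C replicate 3 (-0.32), without the 3 muscle libraries (-0.44) and without KO at room temperature replicates 2 and 4 (-0.23), and its adjusted p over the refits ran from 0.00138 to 0.167.

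E2f1 was higher at 29 °C in KO (adjusted p = 0.00893 in edgeR's test) and in WT (adjusted p = 7.38e-06), and in KO the call was lost without the 3 muscle libraries (0.63, adjusted p = 0.227; range over its refits 0.00382 to 0.227). The repressor E2f5 (chromosome 3, 14578641 to 14606309, plus strand) averaged 8.31 ± 0.633 CPM in KO at 29 °C and 12.8 ± 0.719 CPM in KO at room temperature, and 9.37 ± 1.07 CPM in WT at 29 °C and 12.2 ± 1.38 CPM in WT at room temperature. It fell by 0.63 ± 0.12 in KO (adjusted p = 0.000537) and by 0.38 ± 0.11 in WT (adjusted p = 0.00524). E2f4 (chromosome 8, 105297663 to 105305370, plus strand), the repressor that binds pocket proteins in resting cells, averaged 14.6 ± 1.64 CPM in KO at 29 °C and 19 ± 1.79 CPM in KO at room temperature, a fall of 0.38 ± 0.11 (adjusted p = 0.00899). In WT E2f4 averaged 16.2 ± 1.66 CPM at 29 °C and 18.5 ± 0.553 CPM at room temperature and did not pass (-0.19 ± 0.10, adjusted p = 0.0963). Without KO at 29 °C replicate 1 the fall of E2f4 in KO was not called (-0.31, adjusted p = 0.0513; range over its refits 0.00262 to 0.0513).

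E2f3 fell with 29 °C in KO by 0.49 ± 0.14 (adjusted p = 0.00849 in edgeR's test), a call lost without the 3 muscle libraries (-0.61, adjusted p = 0.0543; range over its refits 0.00299 to 0.0543), and stood at 0.07 ± 0.13 in WT (adjusted p = 0.636). E2f6 fell in WT by 0.44 ± 0.11 (adjusted p = 0.00239) and stood at -0.05 ± 0.12 in KO (adjusted p = 0.739). The housing difference between the genotypes is the interaction given above, which E2f3 passed and E2f6 did not.

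**Figure D4:**
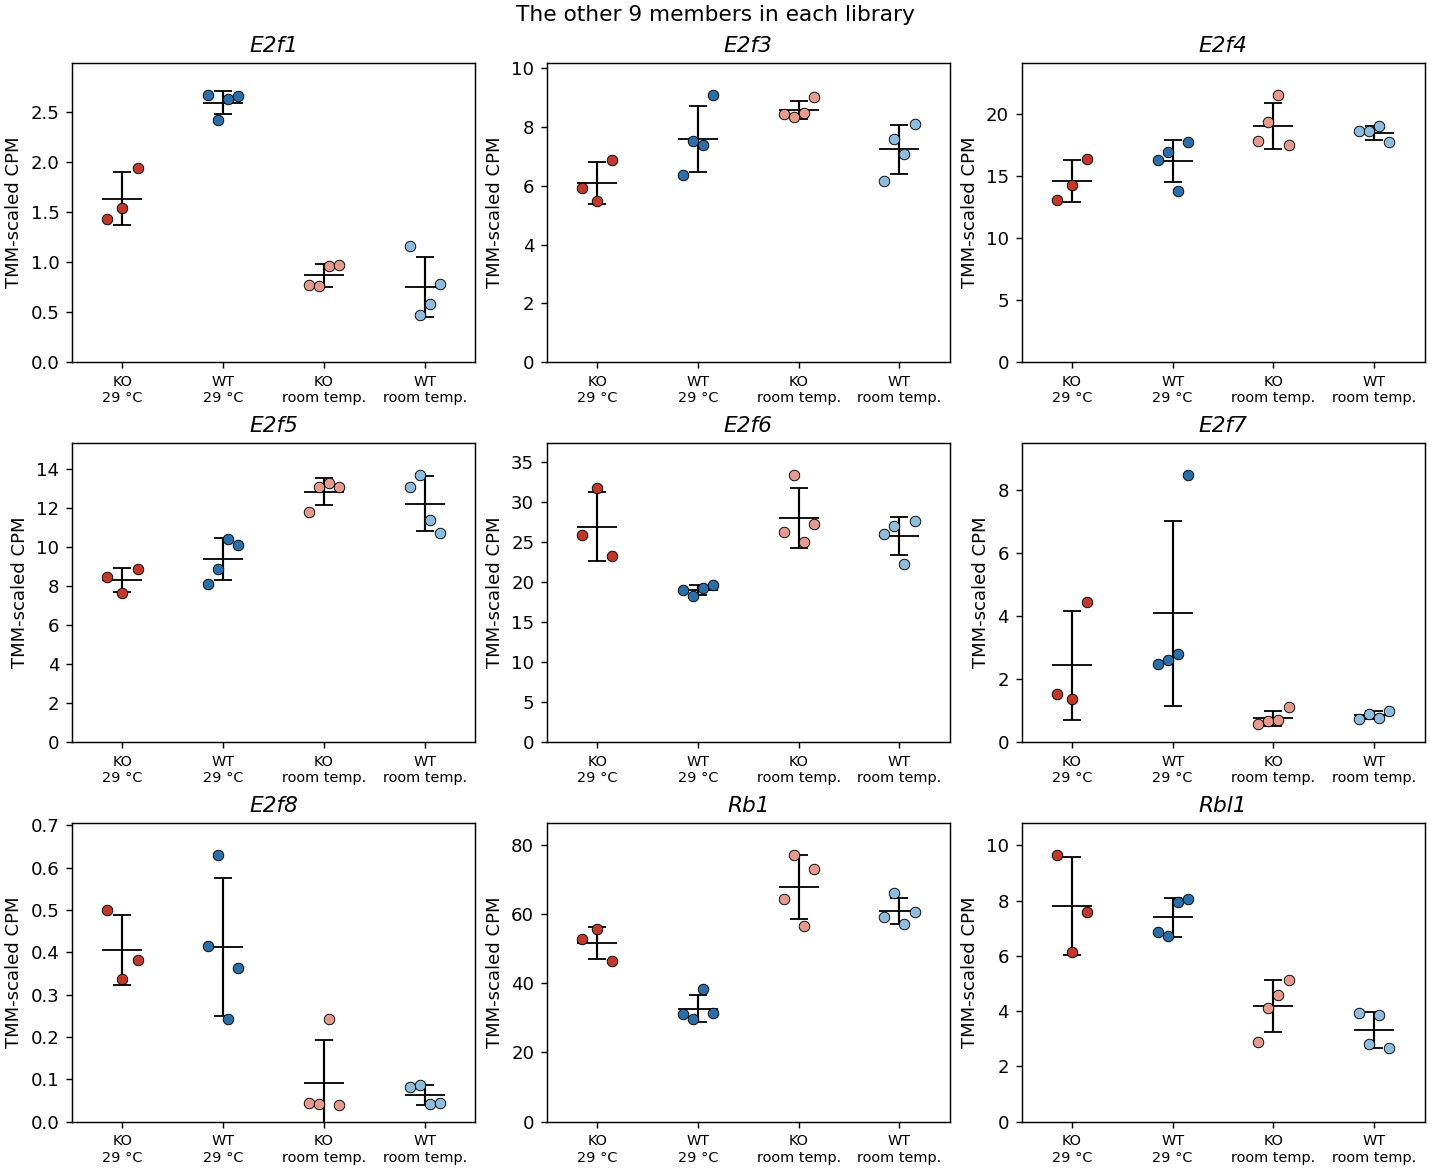
Levels in CPM after TMM scaling of the 9 genes other than E2f2 in each library (points) by group, with the group mean and SD (the bar of E2f8 in KO at room temperature is cut at 0). E2f7 reaches 8.47 CPM in 1 WT library at 29 °C, and Rb1 lies between 29.6 and 38.4 CPM in WT at 29 °C and between 46.4 and 77.1 CPM in the other 3 groups.

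Exons of E2f5, E2f7, E2f8 and Rb1 overlap exons of genes on the opposite strand, by 26, 86, 610 and 896 bases of merged exon. No source used here says whether the counting used strand, so part of these counts is uncertain, most of all for E2f8 and Rb1. The pocket protein gene Rbl2 (p130), which is not among the 10 and was looked at after its values were seen, averaged 41.3 ± 6.18 CPM in KO and 24.4 ± 4.17 CPM in WT at 29 °C, and 58.3 ± 0.713 CPM in KO and 68.1 ± 4.16 CPM in WT at room temperature. Like Rb1, it was lowest in WT at 29 °C.

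Among the genes that E2Fs and pocket proteins act on, more of the DNA replication genes rose than fell with 29 °C in each genotype. Tk1 and Orc1 of the 30 replication targets passed the filter only through the 29 °C libraries, and the counts are over the other 28. In KO 16 rose and 0 fell, where 46.0% of the 13486 genes that passed at both temperatures were called (22.5% higher and 23.4% lower). The median log2 change in KO was 0.69, against 0.00 over those genes. In WT 17 rose and 4 fell, where 69.7% of all such genes were called (34.1% higher and 35.6% lower). The median in WT was 0.64, against -0.01. The replicative helicase subunit Mcm6 averaged 9.72 ± 0.695 CPM in KO at 29 °C and 3.78 ± 0.949 CPM in KO at room temperature (1.36 ± 0.17, adjusted p = 1.5e-05 in edgeR's test). The licensing factor Cdc6 averaged 3.55 ± 0.51 CPM in WT at 29 °C and 0.955 ± 0.0925 CPM in WT at room temperature (1.89 ± 0.24, adjusted p = 3.2e-06). The 4 genes that fell in WT, named after their values were seen, were Cdc45 (-1.18), Gins1 (-1), Rrm1 (-0.46) and Dut (-0.38). Of 15 mitotic genes, 8 passed the filter only through the 29 °C libraries and are not counted. Of the other 7, 6 rose in KO (median 1.34) and 5 in WT (median 1.17), and 0 fell in either. The proliferation marker Mki67 averaged 7.99 ± 3.59 CPM in KO at 29 °C, 9.9 ± 2.32 CPM in WT at 29 °C, 1.05 ± 0.508 CPM in KO at room temperature and 0.688 ± 0.232 CPM in WT at room temperature. Without the 3 muscle libraries fewer of the replication targets were called in KO, and fewer of all genes. That fit holds 1 KO library at 29 °C, and its count was taken with Tk1 and Orc1 included.

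Of the 30 replication targets, 29 passed the filter in both genotypes. Between KO and WT at 29 °C, 7 of the 29 rose and 2 fell (median 0.01, against 0.05 over the 14009 such genes). That was a smaller share than the 46% of such genes that were called. The helicase factor Cdc45 (1.21 ± 0.17, adjusted p = 4.03e-05 in edgeR's test), the ribonucleotide reductase subunit Rrm1 (0.74, adjusted p = 0.000109) and the sliding clamp Pcna (0.55, adjusted p = 0.00165) rose, and the primase subunit Prim1 fell by 0.86 (adjusted p = 0.00427). Cdc6 was the other gene that fell, by 0.71 (adjusted p = 0.025). Without the 3 muscle libraries, which leaves 1 KO library at 29 °C, fewer of the 30 were called, and fewer of all genes. Of the 15 mitotic genes, 0 were called by edgeR and 0 by DESeq2, which called 45.6% of all genes. At an unadjusted p under 0.05 there were also 0, against 7786 of all 15083 tested genes. Over the 13 mitotic genes that passed the filter in both genotypes the median was -0.18. At room temperature edgeR called 0 of the 77 tested genes of the 6 pathway lists, where it called 0.239% of all tested genes. DESeq2 called 1, the MuvB subunit Lin52, where it called 1.67% of all genes. The unadjusted p was under 0.05 for 10 of the 77, a share close to that of all genes (1678 of 15083).

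Some regulators upstream of pocket proteins differed between the genotypes at 29 °C, as did 44.7% of all tested genes (24.7% higher and 20.0% lower). Of 9 G1 cyclins and kinases, 0 rose and 3 fell in KO (median -0.34). Their share, 33.3%, was below that of all genes called in either direction and above that of all genes called lower. Without the 3 muscle libraries, which leaves 1 KO library at 29 °C, the called G1 genes were not all lower. Cyclin D1, Ccnd1, averaged 33.6 ± 3.63 CPM in KO and 58.3 ± 11.7 CPM in WT at 29 °C (-0.80 ± 0.19, adjusted p = 0.00389 in edgeR's test). Cdk2 averaged 18.1 ± 1.43 CPM in KO and 33.5 ± 2.21 CPM in WT (-0.89 ± 0.10, adjusted p = 7.41e-06), and Ccnd3 fell by 0.52 (adjusted p = 0.00216). Of 6 tested inhibitors of cyclin-dependent kinases (Cdkn2a was below the filter), 2 rose and 1 fell, close to the share of all genes, and 2 were called without the 3 muscle libraries. Cdkn2c (p18) averaged 67.6 ± 9.32 CPM in KO and 27.5 ± 2.84 CPM in WT (1.30 ± 0.14, adjusted p = 2.83e-06), Cdkn1b (p27) rose by 0.45 (adjusted p = 0.0116), and Cdkn1a (p21) fell by 1.23 (adjusted p = 0.0103). With 29 °C in WT, Ccnd1 rose by 2.56 ± 0.19 (adjusted p = 1.82e-08) and Cdkn2c fell by 1.86 ± 0.13 (adjusted p = 4.91e-09).

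Of 9 dimer partners of E2F and subunits of the MuvB complex, which joins pocket proteins and E2F in the DREAM complex, 2 rose in KO at 29 °C (median 0.12), below the 44.7% of all tested genes that were called. The MuvB subunit Lin9 averaged 6.58 ± 1.11 CPM in KO and 2.18 ± 0.448 CPM in WT at 29 °C (1.60 ± 0.17, adjusted p = 3.3e-06 in edgeR's test), and the E2F dimer partner Tfdp2 rose by 0.59 ± 0.09 (adjusted p = 0.000106). The mitotic activator Foxm1, a partner of MuvB, rose with 29 °C by 2.01 ± 0.34 in KO (adjusted p = 0.000187) and 3.38 ± 0.34 in WT (adjusted p = 2.93e-07). Of 8 partners of E2f6 in its Polycomb complex, Rnf2 (-0.46, adjusted p = 0.0235) and Pcgf6 (-0.53, adjusted p = 0.0457) fell in KO at 29 °C, where E2f6 itself rose, and the median was -0.30. These 2 were also a smaller share than that of all genes, and 1 was called without KO at room temperature replicates 2 and 4.

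The interaction was called for 4 of the 9 G1 genes, each below 0, where 28.3% of all tested genes were called (16.0% above 0 and 12.3% below). They included Cdk2 (-0.76 ± 0.14, adjusted p = 0.00102 in edgeR's test) and Ccnd1 (-1.26 ± 0.27, adjusted p = 0.00314); the others were Ccnd2 (-0.81) and Ccnd3 (-0.47). With the replicate number as a block 2 of the 9 were called, and also 2 without KO at room temperature replicates 2 and 4. It was called for 4 of 9 dimer partners and MuvB subunits, 3 above 0 and 1 below, led by Lin9 (1.94 ± 0.23, adjusted p = 3.96e-05). Among the 30 replication targets 4 were called above 0 and 2 below, a smaller share than that of all genes. Among the 15 mitotic genes 0 were called by edgeR and 0 by DESeq2, which called 30.7% of all genes. At an unadjusted p under 0.05 there were 0 mitotic genes, against 5921 of all 15083 tested genes. Without the 3 muscle libraries the counts were 2 for the dimer partners and MuvB subunits and 3 for the replication targets, where 18.6% of all genes were called.

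**Figure D5:**
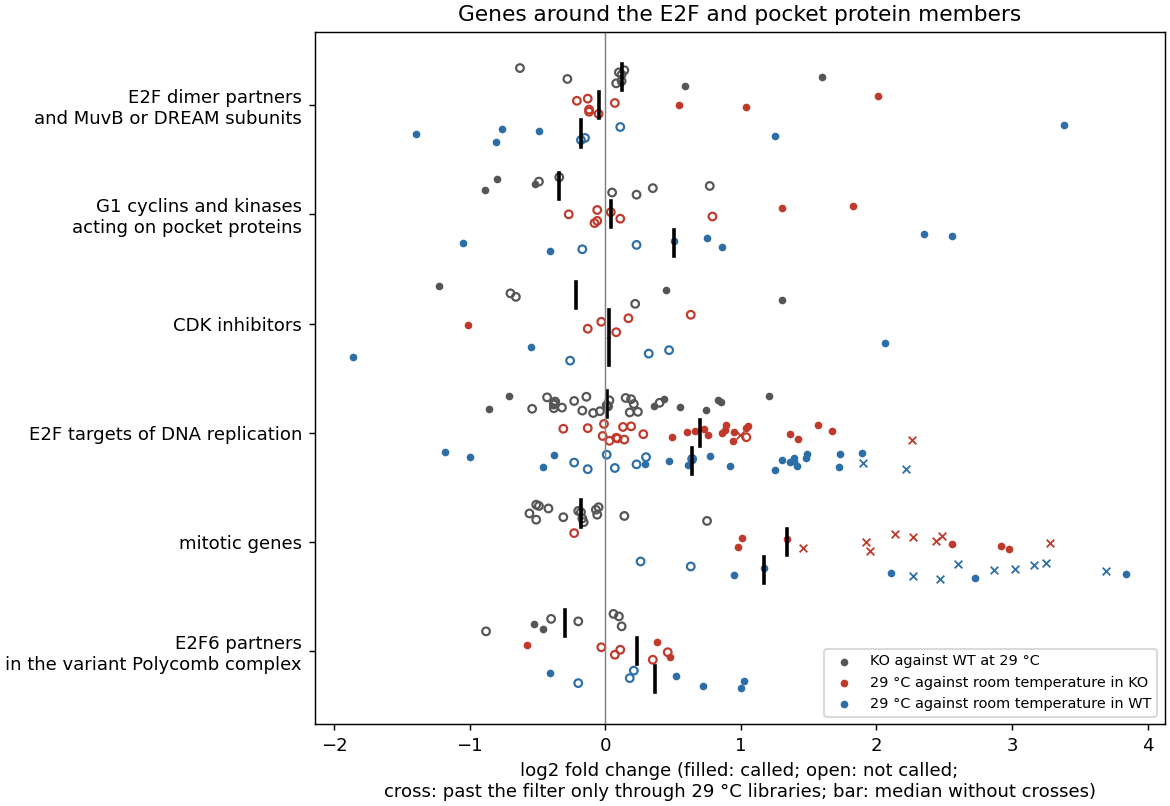
Log2 fold change of each tested gene (points) of the 6 pathway lists for KO against WT at 29 °C and for 29 °C against room temperature in KO and in WT; filled points were called, open ones were not, crosses passed the filter only through the 29 °C libraries, and bars are list medians without the crosses. The mitotic genes have a median of 1.34 in KO and 1.17 in WT with 29 °C, and of -0.18 between KO and WT at 29 °C.

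Markers of cell types moved in the same comparisons. Between KO and WT at 29 °C, 24.7% of all tested genes were called higher and 20.0% lower. The median log2 difference of 10 brown adipocyte markers was 1.44 (range -0.52 to 2.86), against 0.04 over all genes. It was 0.03 for 10 stromal progenitor markers (-1.8 to 0.84) and -0.15 for 6 Schwann cell markers (-0.92 to 0.79). Of these markers, 7 brown adipocyte ones rose and 1 fell, 3 stromal progenitor ones rose and 3 fell, and 2 Schwann cell ones rose. Without the 3 muscle libraries, which leaves 1 KO library at 29 °C, fewer brown adipocyte and stromal progenitor markers were called. In KO against WT at 29 °C, 10 of 10 endothelial markers fell (summed level 628 to 819 CPM in KO against 1408 to 1881 CPM in WT). Of 8 tested erythroid markers, 7 passed the filter in both genotypes, and of these 5 fell and none rose (summed level 1459 to 2775 CPM in KO against 2765 to 6056 CPM in WT). In the same comparison 6 of the 7 lymphocyte markers that passed the filter in both genotypes rose (23.8 to 35.2 CPM in KO against 6.46 to 8.46 CPM in WT, summed over 10) and 4 of 10 macrophage markers rose (386 to 569.8 CPM in KO against 222 to 335 CPM in WT). Without the 3 muscle libraries 0 of the 8 erythroid markers were called, and with the replicate block 3. At room temperature, where E2f2 was higher in KO, 0.239% of all tested genes were called between KO and WT. Of 10 endothelial markers 1, the junction protein Cldn5, fell (summed level 465 to 595 CPM in KO against 549 to 699.6 CPM in WT). The count called was 0 of 8 tested erythroid, 0 of 10 lymphocyte and 0 of 10 macrophage markers. The call of Cldn5 was lost without the 3 muscle libraries and without KO at room temperature replicates 2 and 4. Erythroid sums there were 616 to 978 CPM in KO against 712 to 1247 CPM in WT. Lymphocyte sums were 3.58 to 7.46 CPM in KO against 3.22 to 4.28 CPM in WT, and macrophage sums 89.1 to 182 CPM in KO against 95.9 to 134 CPM in WT. No marker of these 4 cell types was at 0 in every library of a group. With 29 °C, 24.3% of all tested genes were called higher in KO and 35.9% in WT, and 21.7% and 32.8% lower. Macrophage markers rose in 10 of 10 in KO and 9 of 10 in WT. The count of endothelial markers that rose was 5 of 10 in KO and 10 of 10 in WT, and that of stromal progenitor markers 7 of 10 in KO and 6 of 10 in WT. Among markers that passed the filter at both temperatures, 6 of 6 erythroid ones rose in each genotype, and 5 of 5 lymphocyte ones rose in KO and 3 of 5 in WT. Brown adipocyte markers fell in 2 of 10 in KO and 9 of 10 in WT, and of 6 Schwann cell markers 1 rose in KO and 2 fell in WT. Without the 3 muscle libraries the counts in KO were 2 endothelial, 3 stromal progenitor and 0 brown adipocyte markers. Without KO at room temperature replicates 2 and 4 the count of Schwann cell markers in KO was 0. The part of these cell types in the levels of the E2F and pocket protein genes was not tested.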

How the data were processed

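Per the submitters' processing notes, the build was mm10 and the tools STAR 2.7.10a, RSEM 1.2.28 and DESeq2 1.3.40, and per the labels' protocols reads were paired, of 150 bp each. The authors deposited estimated counts per gene symbol, of which 7.26% had decimals and which were rounded here to whole counts. All columns were matched to samples by name (0 unmatched). A spreadsheet had made dates of 24 symbols, which are not named. Genes were kept with edgeR's filterByExpr (minimum count 10). Libraries were TMM-scaled and fitted in 1 robust quasi-likelihood model with 4 groups and 11 residual degrees of freedom (edgeR 4.0.16, limma 3.58.1, R 4.3.3). P-values were adjusted by Benjamini-Hochberg over all genes tested in each comparison, with calls made under 0.05. The SE is the absolute log2 fold change over the square root of F. Log2 CPM used a prior count of 1.

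The members and lists were chosen with earlier results of these data known. Named are Park7, the members, up to 4 called genes per list and comparison with the smallest p and a mean of at least 1 CPM, and the 5 genes most like E2f2, of which 1 is not reported here; the text gives a selection of these. Rbl2 was added after its values were seen. Alternatives were RLE size factors, no filter, a filter of 1 CPM in 4 libraries, DESeq2 1.42.0, limma-voom, a block for the replicate number, a fit on the compared libraries alone, a threshold of 0.01, a 1.5-fold limit, each of 15 libraries left out, and both sets of doubtful libraries left out. The counts of list genes under these settings, and those of genes that both sides of a comparison would have carried past the filter, were added after the data were seen.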

Additional observations from a re-analysis of the deposited data

Results flagged for a closer look

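In 33 gene and group combinations of 4 libraries, 4 held a library whose gap to its nearest neighbour was large against the range of the group by Dixon's criterion at the 95% level, which chance alone gives in about 5% of groups. E2f7 was at 8.47 CPM in WT at 29 °C replicate 4, where the nearest library had 2.80 CPM. E2f8 was at 0.242 CPM in KO at room temperature replicate 3, where the nearest had 0.0431 CPM. E2f3 was at 9.02 CPM in KO at room temperature replicate 4, where the nearest had 8.46 CPM. E2f5 was at 11.8 CPM in KO at room temperature replicate 1, below the nearest at 13.1 CPM. The 3 KO libraries at 29 °C were too few to be examined.

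The KO effect differed between 29 °C and room temperature for E2f3 by -0.56 and for Rb1 by 0.50 on the log2 scale, both by the interaction term. The same difference was -3.74 for E2f2, which was picked for it, so that it was not tested.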

How the results depend on the processing

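No member's called value changed sign under any alternative; of the alternative values of the 9 members other than E2f2, 1006 kept direction and call, 31 lost and 9 gained a call, and 17 changed sign without being called. Between KO and WT at 29 °C, 3 members were called in the analysis as reported, 1 without the 3 muscle libraries (where the share of all genes called was 27%, against 44.7%), and 2 to 5 with 1 library left out (5 without KO at 29 °C replicate 3). With 29 °C in KO, 8 were called, E2f8 included, 5 with a 1.5-fold limit (29% of all genes, against 46.0%), 4 without the muscle libraries (26.3%), and 6 to 8 with 1 library left out. With 29 °C in WT, 7 were called with any 1 library left out, E2f8 included, where 65% to 68.9% of all genes were called. In these refits the share of all genes was 35% to 44.7% between KO and WT at 29 °C. It was 35.8% to 48.4% with 29 °C in KO and 21.3% to 29.8% for the interaction. For the interaction 2 were called, where 28.3% of all genes were. The count was 0 at an adjusted p under 0.01 (15.3% of all genes) and 0 with a 1.5-fold limit (21.6%). It was 0 to 3 with 1 library left out. Both calls were lost without the muscle libraries, which leaves 1 KO library at 29 °C. DESeq2 called 2, where it called 30.7% of all genes. The unadjusted p was under 0.05 for 4 of the 9, against 5921 of all 15083 tested genes. At room temperature the count of members was 0 in each alternative, while 36 genes were called overall as reported, 237 with DESeq2, 4 at an adjusted p under 0.01, 13 without the muscle libraries, 5 without KO at room temperature replicates 2 and 4, and 5 to 60 with 1 library left out. A fit on only the libraries compared is not defined for the interaction.

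The libraries share only a replicate number: over 21 same-numbered pairs the correlation of deviations ran from -0.28 to 0.33, with 4 above 0.1, and 7 of 15 libraries correlated best with their own number. With a replicate block, 2 members were called for KO against WT at 29 °C (42% of all genes) and 0 at room temperature (0.166%). With 29 °C, 8 were called in KO (44.4%) and 7 in WT (68.1%), E2f8 included in each. For the interaction 2 were called (26.8%). The block changed 1 call, that of E2f1 between KO and WT at 29 °C (-0.64). Low counts limit E2f8 at room temperature, and having 3 KO libraries at 29 °C limits each comparison that uses them.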
